A study of Homo sapiens with 4 samples.

Results

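Imprinted genes are expressed from a single parental copy, and 10 of them that lie outside the imprinted region of chromosome 11p15 are described here: DLK1, MEG3, SNRPN, NDN, MAGEL2, PLAGL1, PEG3, PEG10, SGCE and GRB10. They were chosen by name, and all 10 were found among the genes of the hg38 RefSeq annotation, which places 19817 protein-coding genes on chromosomes 1 to 22 and X; 9 of the 10 encode proteins and MEG3 is a long noncoding RNA. Each gene was given a window of its annotated span and 20 kb on either side, and the H2AK119ub peaks in that window were taken from both lists. These windows held 21 of 34390 knockdown peaks and 19 of 32791 wild-type peaks. The cells were H1 human embryonic stem cells, an established line grown in mTeSR1 medium, either given an shRNA (short hairpin RNA) to deplete YTHDF1 or left untreated (wild type). Each group had 1 library precipitated with an antibody to H2AK119ub and 1 input library, which was not analysed here. With 1 library per group there was no replicate spread and no test, so every difference below sets a single library beside another. The deposited lists hold no read counts, so the depth of the libraries is unknown, and a region outside a list may lie just under its calling threshold. Peaks measure neither RNA nor DNA methylation and do not separate the parental copies, so the knockdown, the stem cell identity and the imprinting of these genes were not checked. The wild-type cells are labelled as untreated, so an effect of the hairpin treatment itself cannot be told apart from loss of YTHDF1.

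H2AK119ub is histone H2A carrying a single ubiquitin near its C-terminal end, the mark placed by Polycomb repressive complex 1 (PRC1), and it commonly lies over CpG-rich promoters of silent or weakly expressed genes. At most imprinted loci, CpG methylation inherited from a single germline marks a control region and sets which parental copy of the neighbouring genes is expressed. Polycomb marks are known to occur at many such loci, commonly on the copy that is not methylated. YTHDF1 is a cytoplasmic protein that binds methylated adenosine (m6A) in messenger RNA.

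RefSeq (GRCh38.p14, the coordinates of hg38) gave promoter sequences for 6 of the 10 genes, 19 windows in all, each from 250 bp before to 50 bp after an annotated transcription start. The 8 windows below were picked where the peaks of the lists differed or where a known imprinted promoter lies, and CpG dinucleotides, the sites of imprint methylation, are in capitals. They comprise the MEG3 start, 3 of the SNRPN starts, the NDN and MAGEL2 starts, the inner PLAGL1 start that coincides with the noncoding gene HYMAI, and an inner GRB10 start.
MEG3, chr14:100825858-100826157, plus strand: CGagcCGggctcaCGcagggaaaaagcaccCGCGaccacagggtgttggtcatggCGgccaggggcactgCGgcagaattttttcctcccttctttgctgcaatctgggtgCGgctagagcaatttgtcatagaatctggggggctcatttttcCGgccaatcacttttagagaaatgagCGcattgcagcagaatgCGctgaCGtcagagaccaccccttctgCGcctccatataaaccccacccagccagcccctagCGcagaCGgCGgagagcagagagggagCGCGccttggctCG
SNRPN upstream start, chr15:24856321-24856620, plus strand: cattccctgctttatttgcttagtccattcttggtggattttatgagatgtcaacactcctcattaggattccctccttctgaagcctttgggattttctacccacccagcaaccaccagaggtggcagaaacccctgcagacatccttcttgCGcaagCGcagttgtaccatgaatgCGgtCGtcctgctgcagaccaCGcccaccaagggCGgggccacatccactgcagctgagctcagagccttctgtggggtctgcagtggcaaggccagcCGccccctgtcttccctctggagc
SNRPN start shared with SNURF, chr15:24954737-24955036, plus strand: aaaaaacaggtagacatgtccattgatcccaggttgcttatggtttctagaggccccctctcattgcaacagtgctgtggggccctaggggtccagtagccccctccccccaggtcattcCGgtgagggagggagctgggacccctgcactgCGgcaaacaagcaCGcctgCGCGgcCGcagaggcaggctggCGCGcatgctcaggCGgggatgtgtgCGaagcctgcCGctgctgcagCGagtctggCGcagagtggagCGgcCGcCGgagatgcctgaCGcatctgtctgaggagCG
SNRPN last start, chr15:24956050-24956349, plus strand: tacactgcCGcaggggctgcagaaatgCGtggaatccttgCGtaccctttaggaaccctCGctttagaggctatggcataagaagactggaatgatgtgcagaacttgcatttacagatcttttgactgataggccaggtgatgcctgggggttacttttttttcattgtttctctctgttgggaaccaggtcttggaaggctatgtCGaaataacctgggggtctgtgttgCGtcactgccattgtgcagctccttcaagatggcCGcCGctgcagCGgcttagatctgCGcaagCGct
NDN, chr15:23687256-23687555, minus strand: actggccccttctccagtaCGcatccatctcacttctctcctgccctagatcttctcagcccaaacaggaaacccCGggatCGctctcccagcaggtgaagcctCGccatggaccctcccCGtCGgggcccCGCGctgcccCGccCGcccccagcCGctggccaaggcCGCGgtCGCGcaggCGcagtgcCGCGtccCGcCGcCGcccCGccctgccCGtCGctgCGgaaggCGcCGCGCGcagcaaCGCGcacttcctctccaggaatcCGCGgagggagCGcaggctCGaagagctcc
MAGEL2, chr15:23647818-23648117, minus strand: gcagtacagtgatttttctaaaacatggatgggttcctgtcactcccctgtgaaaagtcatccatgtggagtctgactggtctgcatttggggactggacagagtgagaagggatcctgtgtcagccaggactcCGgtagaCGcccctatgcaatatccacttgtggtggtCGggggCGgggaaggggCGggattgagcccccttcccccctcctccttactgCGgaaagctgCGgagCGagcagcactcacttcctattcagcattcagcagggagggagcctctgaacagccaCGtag
PLAGL1 inner start at HYMAI, chr6:144008210-144008509, minus strand: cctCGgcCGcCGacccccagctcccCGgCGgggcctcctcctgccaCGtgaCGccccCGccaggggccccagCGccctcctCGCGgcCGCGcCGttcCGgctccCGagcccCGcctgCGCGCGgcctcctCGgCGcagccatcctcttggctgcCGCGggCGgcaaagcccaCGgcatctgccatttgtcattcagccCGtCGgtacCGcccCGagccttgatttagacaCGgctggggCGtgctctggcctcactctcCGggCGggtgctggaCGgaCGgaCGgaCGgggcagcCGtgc
GRB10 inner start, chr7:50782847-50783146, minus strand: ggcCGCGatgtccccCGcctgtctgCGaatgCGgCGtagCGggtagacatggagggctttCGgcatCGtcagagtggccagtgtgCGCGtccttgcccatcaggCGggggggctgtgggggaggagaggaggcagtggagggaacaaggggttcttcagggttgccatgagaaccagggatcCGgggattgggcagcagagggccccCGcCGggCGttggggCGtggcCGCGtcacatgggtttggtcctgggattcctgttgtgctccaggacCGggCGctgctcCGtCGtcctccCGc

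Across the 10 genes, most peaks of each list overlapped a peak of the other by at least 1 bp. With an overlap of 50% of both peaks required, 11 of 21 knockdown peaks and 11 of 19 wild-type peaks were shared. Where 1 peak of each list met only the other, the knockdown peak was usually narrower, as in the lists at large. The NDN peak was absent from the knockdown list, an upstream SNRPN peak was present in the knockdown list alone, and PEG3 had no peak in either list. DLK1, PLAGL1 and MEG3 had the largest part of their windows inside peaks in both lists. Taken as 8 separate loci, since the windows of SGCE and PEG10 and those of MAGEL2 and NDN overlap, the regions summed to 1008 kb. Knockdown peaks covered 104.8 kb of it (10.4%) and wild-type peaks 122.7 kb (12.2%), a ratio of 0.854. The whole knockdown list covered 168.3 Mb and the whole wild-type list 195.1 Mb, a ratio of 0.863, so the lower total at these loci was near that of the lists as a whole. With the wild-type list cut to the covered length of the knockdown list, the loci had 10.4% in knockdown cells and 10.9% in wild-type cells.

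A peak lay in the window of 8 of 10 genes in knockdown cells, where 79.8% of all protein-coding genes had one, and in 9 of 10 in wild-type cells, where 79.4% did. The part of the window inside peaks was smaller in knockdown cells at 7 genes, larger at 2 and 0 in both lists at PEG3. Among all protein-coding genes with a peak in either list it was smaller at 64.0% and larger at 34.1%, so a majority of lower values was also the state of genes at large. A change of at least 1.5 times was counted as a call, and it was made for NDN and GRB10 in the lower direction and for SNRPN in the higher. These were 2 and 1 of the 9 genes with a peak in either list. Among all protein-coding genes with a peak in either list, 24.7% were lower and 13.6% higher by as much, so the counts at the imprinted genes were near those of genes at large. The median ratio of knockdown to wild type over the 8 genes covered in both lists was 0.818, and over 15067 protein-coding genes it was 0.885. SGCE and PEG10 have the same single peak in each list and the same ratio, 0.737. That peak therefore entered this median, and the count of 7 genes with smaller values, under both names. When the gene spans alone were used, the median over the imprinted genes was 1.04, against 0.923 over all protein-coding genes. At that setting 3 of the imprinted genes were lower by at least 1.5 times and 1 was higher. The shares of all protein-coding genes with a peak in either list were 29.9% and 18.2%. The spans together were 10.8% inside peaks in knockdown cells and 13.8% in wild-type cells. With the wild-type list cut to equal covered length, the median over the imprinted genes was 0.971, against 0.957 over all protein-coding genes, of which 16.4% were then lower and 22.2% higher by at least 1.5 times.

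**Figure D1:**
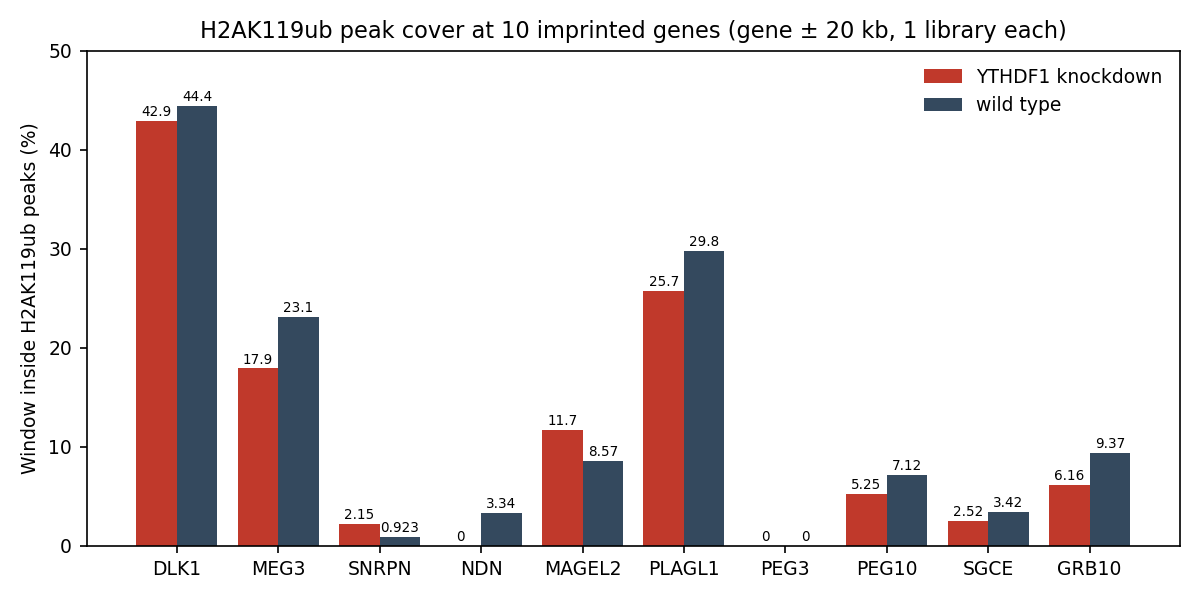
Percent of each gene's window (span and 20 kb either side) inside H2AK119ub peaks, with knockdown bars left of wild-type bars, 1 library each and therefore no error bars. DLK1 (42.9% and 44.4%), PLAGL1 (25.7% and 29.8%) and MEG3 (17.9% and 23.1%) stand above the other 7 genes in both lists, and PEG3 is at 0 in both.

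The order of the genes by covered percent was DLK1, PLAGL1, MEG3, MAGEL2, GRB10, PEG10, SGCE and SNRPN in knockdown cells, with NDN and PEG3 at 0. In the wild type it was DLK1, PLAGL1, MEG3, GRB10, MAGEL2, PEG10, SGCE, NDN, SNRPN and PEG3. The first 3 places were therefore the same, and GRB10 and MAGEL2 changed places. Without replicates, it cannot be said which neighbours in this order differ. The median over the 10 genes was 5.71% in knockdown cells and 7.85% in wild-type cells, and over all protein-coding genes it was 8.77% and 9.67%.

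**Figure D2:**
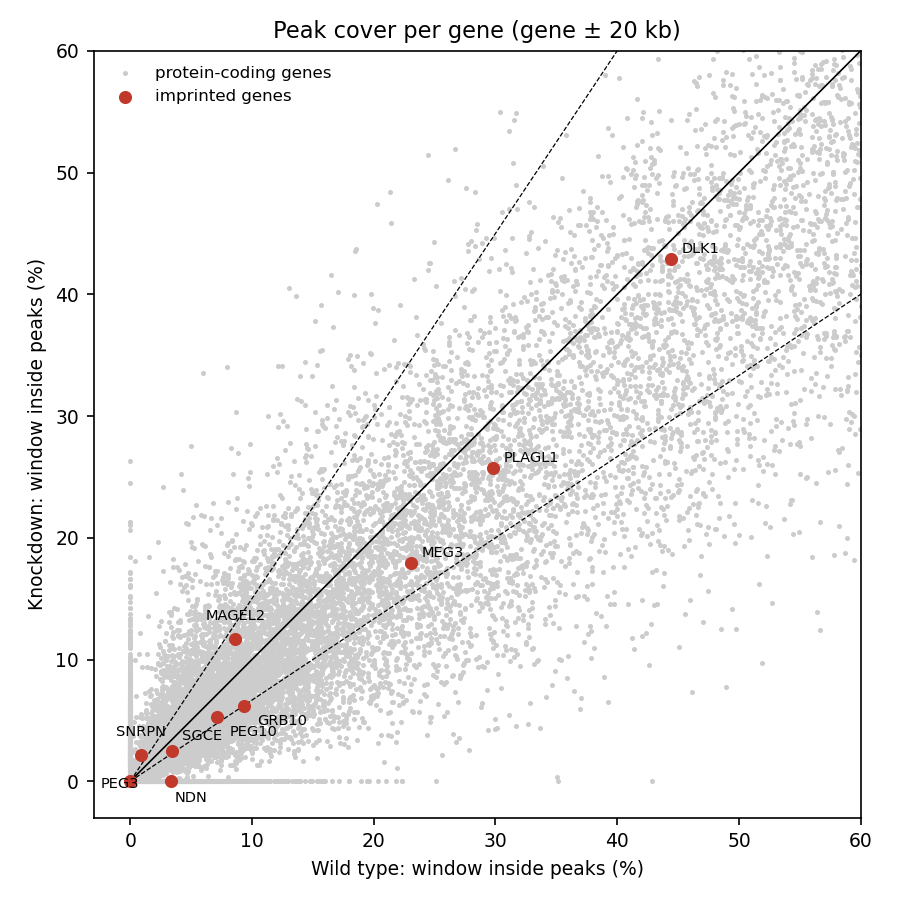
Percent of the window inside peaks for all protein-coding genes (grey) and the 10 imprinted genes (red), knockdown on the vertical and wild type on the horizontal axis, both cut at 60%. The solid line marks equal values and the dashed lines a change of 1.5 times; GRB10 and NDN lie at or below the lower dashed line, SNRPN above the upper one, and the rest between them or, for PEG3, at the origin.

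The DLK1 and MEG3 locus of chromosome 14 had peaks in both lists at both genes. DLK1 encodes a transmembrane protein with EGF-like repeats related to the Notch ligands, and is expressed from the paternal copy. MEG3 is a noncoding RNA expressed from the maternal copy. At DLK1 (chr14:100726892-100738224) peaks covered 22 kb (42.9%) of the window in knockdown cells and 22.8 kb (44.4%) in wild-type cells. A wild-type peak of 17.8 kb (100716201 to 100734000) ran over the lower-coordinate end of the gene, and in knockdown cells it met 2 peaks, of 3.6 kb and 11.4 kb, that both lay wholly inside it. The authors give each peak a score, whose unit is not stated and which is read here by its rank within a list. The wider of these knockdown peaks scored 101.4, above 93.3% of its list, and the wild-type peak 103.6, above 90.1% of its own. A second peak further out on that side was wider in knockdown cells, 7.0 kb against 5.0 kb. The ratio of covered length at DLK1 was 0.965, and 87.7% of the wild-type length also lay in knockdown peaks. Its difference was 3.69 percentage points in favour of the knockdown with 50 kb on either side and -8.94 points with 10 kb.

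MEG3 (chr14:100826108-100861026) had 5 peaks and 13.4 kb in knockdown cells, against 4 peaks and 17.29 kb in wild-type cells (17.9% and 23.1% of the window). Its start lay in a peak in both lists, of 3.2 kb in knockdown cells (100825201 to 100828400) and 3.8 kb in wild-type cells (100824601 to 100828400), with the same end inside the gene. The promoter sequence shown above was wholly inside both. That peak scored above 77.8% of the knockdown list and above 52.0% of the wild-type list. Within the gene, a wild-type peak of 7.8 kb met knockdown peaks of 5.2 kb and 2.2 kb. The lower knockdown value came from the flanks and not from the gene body, since 31.8% of the MEG3 span was inside peaks in knockdown cells and 28.9% in wild-type cells. Upstream, the window met wild-type peaks of 2.4 and 3.8 kb and a knockdown peak of 1.4 kb, none of which overlapped each other. The wild-type peak of 2.4 kb crossed the window edge, and 8.33% of it lay in a knockdown peak outside the window. With the wild-type list cut to the covered length of the knockdown list, the MEG3 difference of -5.2 percentage points became -0.124.

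On chromosome 15, in the region linked to Prader-Willi syndrome, SNRPN, NDN and MAGEL2 are expressed from the paternal copy. SNRPN encodes a core protein of small nuclear ribonucleoproteins, and the region around its main promoter is the imprinting centre of the locus. NDN and MAGEL2 encode proteins of the MAGE family. All 3 had few peaks, of 5.2 kb or less in either list. The widest, at MAGEL2 in knockdown cells, was wider than 71.5% of the knockdown list. SNRPN (chr15:24823637-24978723) had 4.2 kb inside peaks in knockdown cells and 1.8 kb in wild-type cells, which were 2.15% and 0.923% of its window, a ratio of 2.33. Both lists had a peak at the start shared with SNURF, of 1.6 kb in knockdown cells (24954401 to 24956000) and 1.8 kb in wild-type cells (24955001 to 24956800). These peaks overlapped but were offset: the promoter window of the shared start lay wholly inside the knockdown peak and had 36 bp in the wild-type peak. The window of the last start, further into the gene, lay wholly inside the wild-type peak and outside the knockdown peak.

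The higher SNRPN value rested on a knockdown peak of 2.6 kb (24854401 to 24857000) over the upstream start, 32.93 kb from the annotated beginning of the gene. The nearest wild-type peak was 98.43 kb from that start. The knockdown peak scored 12.68, above 43.3% of its list, and in the upper 50% of each list by score SNRPN had no peak at all. SNURF and the noncoding gene SNHG14 overlap SNRPN, so the peaks cannot be assigned to SNRPN alone.

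NDN (chr15:23685400-23687305) had 1 wild-type peak of 1.4 kb (23685801 to 23687200), which filled 73.5% of this short gene. The knockdown list held none, and its nearest peak lay 36.2 kb away, at MAGEL2. The NDN peak was among the narrowest of the wild-type list, with 0.973% of wild-type peaks narrower still, but its score of 29.06 was above 68.2% of them. It ended 0.104 kb inside the annotated start, so the NDN promoter sequence shown above, with 35 CpG dinucleotides, lay outside peaks in both lists. MAGEL2 (chr15:23643549-23647867) had 1 peak in each list, of 5.2 kb (23644001 to 23649200) in knockdown cells, against 3.8 kb (23645001 to 23648800) in wild-type cells, or 11.7% and 8.57% of the window. The knockdown peak contained the whole wild-type peak, and 89.5% of the gene lay inside it, against 66.4% in wild-type cells. The scores ran the other way in rank: the knockdown peak stood above 55.2% of its list and the wild-type peak above 77.7% of its own. Over the joint region of MAGEL2 and NDN, the covered length was 5.2 kb in each list.

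**Figure D3:**
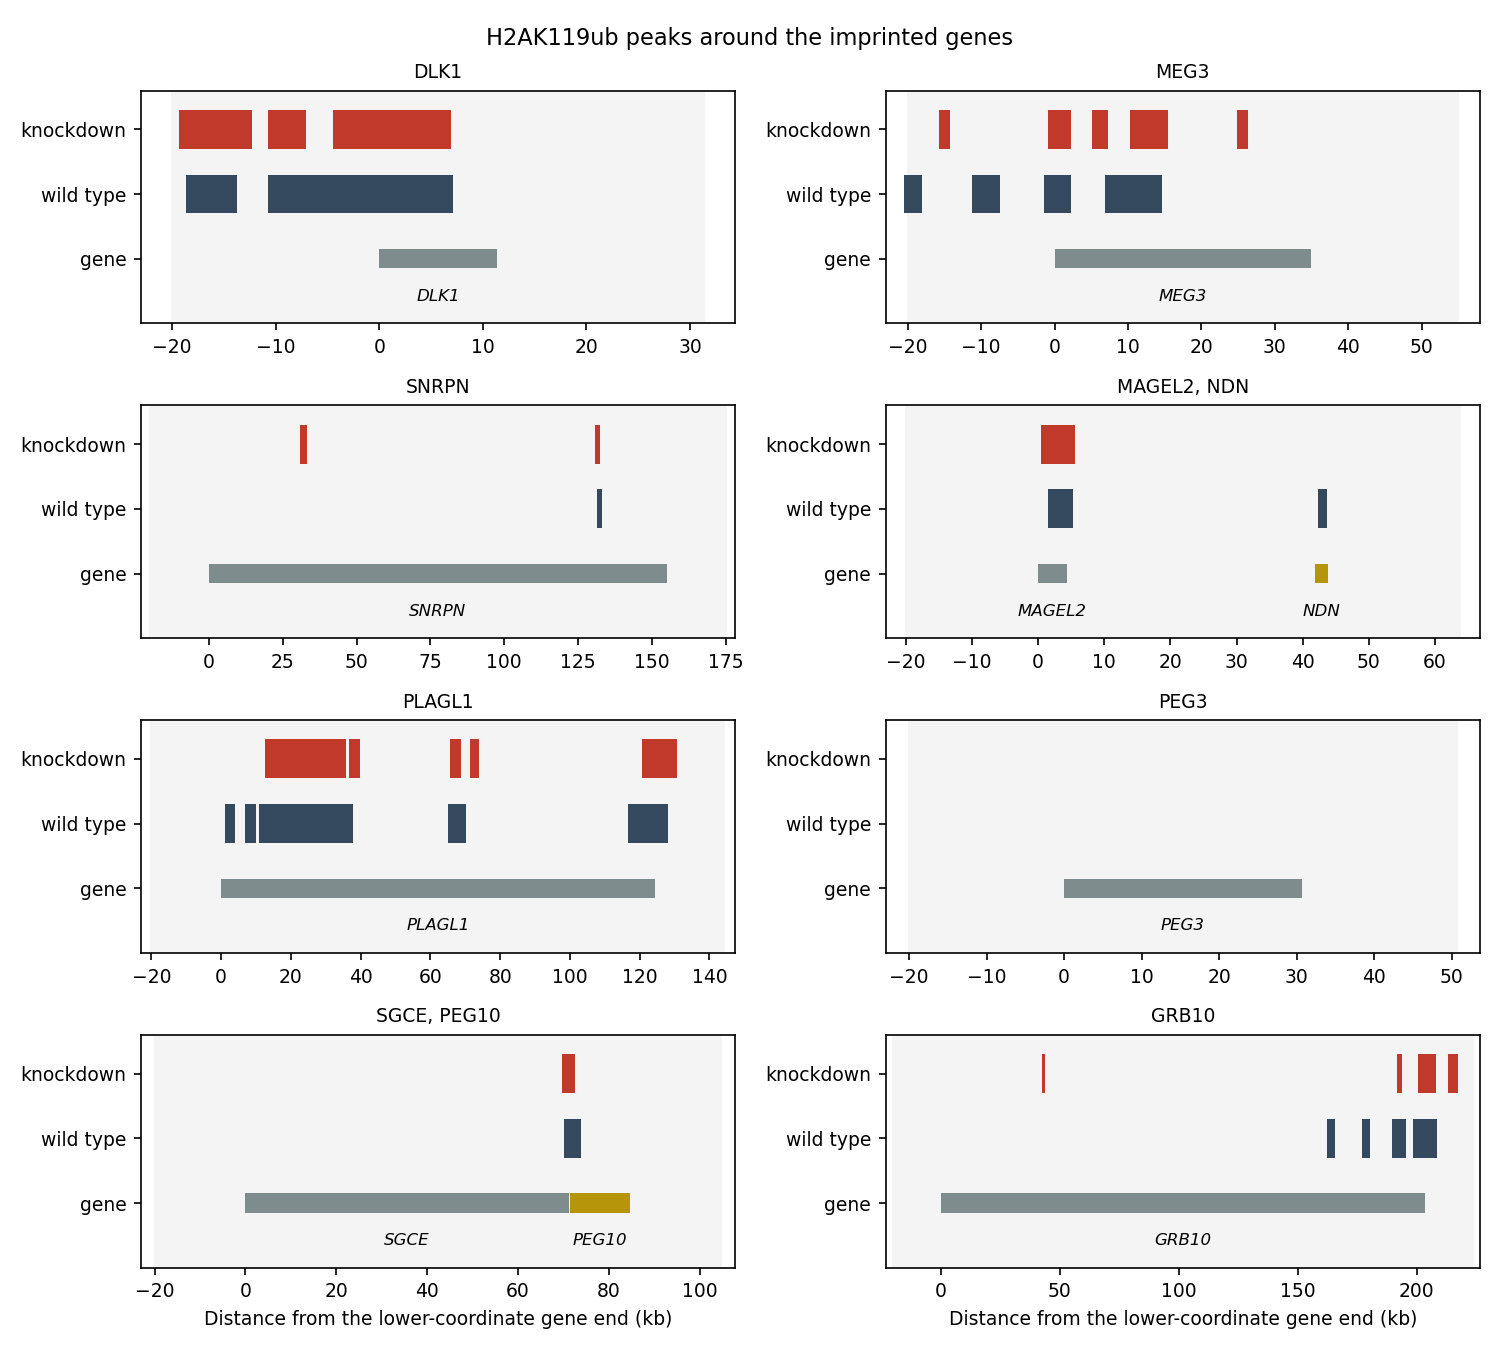
Peaks of the knockdown (upper row) and wild type (middle row) and the gene spans (lower row, with NDN and PEG10 in ochre) at the 8 loci, in kb from the lower-coordinate end of the leftmost gene; the shading is the window, and peaks that cross its edge are drawn whole. The NDN peak of 1.4 kb appears in the wild-type row alone and the upstream SNRPN peak of 2.6 kb in the knockdown row alone, and PEG3 has no peak.

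The zinc finger genes PLAGL1 and PEG3, both expressed from the paternal copy, differed most in covered length: PLAGL1 had the most kb inside peaks of the 10 genes in both lists, and PEG3 had none. PLAGL1 encodes a transcription factor that restrains cell growth and whose locus is linked to transient neonatal diabetes. In its window (gene at chr6:143940300-144064599) peaks covered 42.2 kb (25.7%) in knockdown cells and 49.0 kb (29.8%) in wild-type cells. The difference of -4.14 percentage points became -0.609 with the wild-type list cut to equal covered length. The widest peak of all 10 genes lay towards the 3' end of PLAGL1 and measured 23.2 kb in knockdown cells (143953001 to 143976200) and 26.8 kb in wild-type cells (143951201 to 143978000). It scored 291.3 in knockdown cells, above 98.0% of the list. In wild-type cells it reached the ceiling of 1000, a score that 997 wild-type peaks had, and stood above 97.0% of the list. The ranks of the peak in the 2 lists were therefore close. At the inner start, where the maternal copy is normally methylated and HYMAI begins, the peak measured 3.2 kb in knockdown cells and 5.0 kb in wild-type cells (144006001 to 144009200 and 144005401 to 144010400). The promoter sequence there, with 39 CpG dinucleotides, lay wholly inside both. The outermost PLAGL1 start also lay inside a peak in both lists, of 10 kb in knockdown cells and 11.4 kb in wild-type cells. The lists differed at low-scored peaks: those of 2.8 and 3.0 kb near the 3' end were in wild-type cells alone, and a peak of 2.6 kb beside the inner start was in knockdown cells alone.

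PEG3 (chr19:56810082-56840726), a zinc finger gene linked to growth, had no peak in its window in either list. The nearest peak lay 213.7 kb from the gene in knockdown cells and 213.1 kb in wild-type cells. The windows of the neighbouring imprinted genes ZIM2 and MIMT1 lie within this stretch without peaks, so they are not separate observations.

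SGCE and PEG10 lie head to head on chromosome 7 and share a promoter region, and both are expressed from the paternal copy. SGCE encodes epsilon-sarcoglycan, a membrane protein, and PEG10 is derived from a retrotransposon and acts in the placenta. They had a single common peak, of 2.8 kb in knockdown cells (94654601 to 94657400) and 3.8 kb in wild-type cells (94655001 to 94658800), over the boundary of the genes (SGCE ends at 94656133 and PEG10 begins at 94656325). It filled 5.25% and 7.12% of the PEG10 window and 2.52% and 3.42% of the SGCE window, a ratio of 0.737 for both, which is 1 observation and not 2. The knockdown peak began 0.4 kb further into SGCE and ended 1.4 kb earlier in PEG10. Inside the PEG10 span the covered part was 8.05% in knockdown cells and 18.5% in wild-type cells, and inside SGCE it was 2.15% and 1.59%. CASD1, next to SGCE, had a peak in its window in wild-type cells alone, with 4.0 kb covered.

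GRB10 encodes an adaptor that binds the insulin receptor and is imprinted in a tissue-dependent way in humans, with expression from the paternal copy in brain. Of the genes covered in both lists it had the lowest ratio, 0.658, with 15 kb (6.16%) of its window inside peaks in knockdown cells and 22.8 kb (9.37%) in wild-type cells (gene at chr7:50590068-50793453). At the outer start, the peak measured 7.6 kb in knockdown cells and 10 kb in wild-type cells. At an inner start, 10.56 kb further in, it measured 2.0 kb in knockdown cells (50781801 to 50783800) and 6.0 kb in wild-type cells (50779601 to 50785600), a ratio of 0.333, the lowest of any pair of peaks at these genes. The GRB10 sequence shown above lay wholly inside both. The narrower knockdown peak scored above 79.2% of its list and the wider wild-type peak above 72.0% of its own. Peaks of 3.4 kb each at 50752201 and 50767001 were in wild-type cells alone, and peaks of 1.2 kb inside and 4.2 kb upstream of the gene were in knockdown cells alone. Inside the gene span alone, 2.98% lay in peaks in knockdown cells and 8.78% in wild-type cells. With the wild-type list cut to equal covered length, the GRB10 difference of -3.2 percentage points was -1.81 and was no longer called.

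Peak by peak, 15 of the 21 knockdown peaks (71.4%) overlapped a wild-type peak by 1 bp or more, and 13 of the 19 wild-type peaks (68.4%) overlapped a knockdown peak. Over the whole lists the shares were 74.1% and 71.4%. There were 6 peaks in knockdown cells alone, at MEG3, SNRPN, PLAGL1 and GRB10, with a median width of 2.0 kb, and 6 in wild-type cells alone, at MEG3, NDN, PLAGL1 and GRB10, with a median of 3.2 kb. The shared peaks had medians of 3.6 kb in knockdown cells and 5.0 kb in wild-type cells. The shared peaks stood higher in their lists, with a median above 64.6% of knockdown and 75.5% of wild-type peaks, than the unshared ones, which stood above 41.2% and 17.8%. There were 9 places at which a single peak of each list met no further peak, and the knockdown had the narrower one at 7, at MEG3, SNRPN, PLAGL1 (2 pairs), GRB10 (2 pairs) and PEG10 with SGCE. It had the wider one at 2, at DLK1 and MAGEL2. The median ratio of widths was 0.842, with a range of 0.333 to 1.4, and over 16990 such pairs of the whole lists it was 0.889, with 59.8% narrower in knockdown cells.

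The annotated gene start had a peak within 2 kb at 7 of 10 genes in knockdown cells and at 8 of 10 in wild-type cells, where the shares of all protein-coding genes were 67.2% and 66.8%. For DLK1, PEG3, PEG10 and SGCE both ends of the gene were used. NDN was the gene that differed. SNRPN did not count in either list, since its annotated beginning lies 131.3 kb before the start shared with SNURF.

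Promoter sequence was then set beside the peaks. A window was called CpG-rich when its GC content was at least 50% and its ratio of observed to expected CpG at least 0.6. Of the 19 windows, 9 were CpG-rich, and 8 of these met a peak in knockdown cells and 8 in wild-type cells. Among all CpG-rich windows of the RefSeq table the shares were 80.7% in knockdown cells and 78.9% in wild-type cells. The exception was the NDN window, with 72.0% GC and a CpG ratio of 0.951. Of the 10 other windows, 5 met a peak in each list, where 25.4% of such windows in the table did in knockdown cells and 27% in wild-type cells. They included MAGEL2, with 9 CpG dinucleotides, and 2 PLAGL1 windows with 3 and 2 CpG dinucleotides inside the wide 3' peak. The 2 SNRPN windows at the imprinting centre fell just short of the CpG threshold, with ratios of 0.583 and 0.571. The windows of a gene share their neighbourhood, and the 3 MEG3 windows overlap each other, so these counts are not of separate sites.

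**Figure D4:**
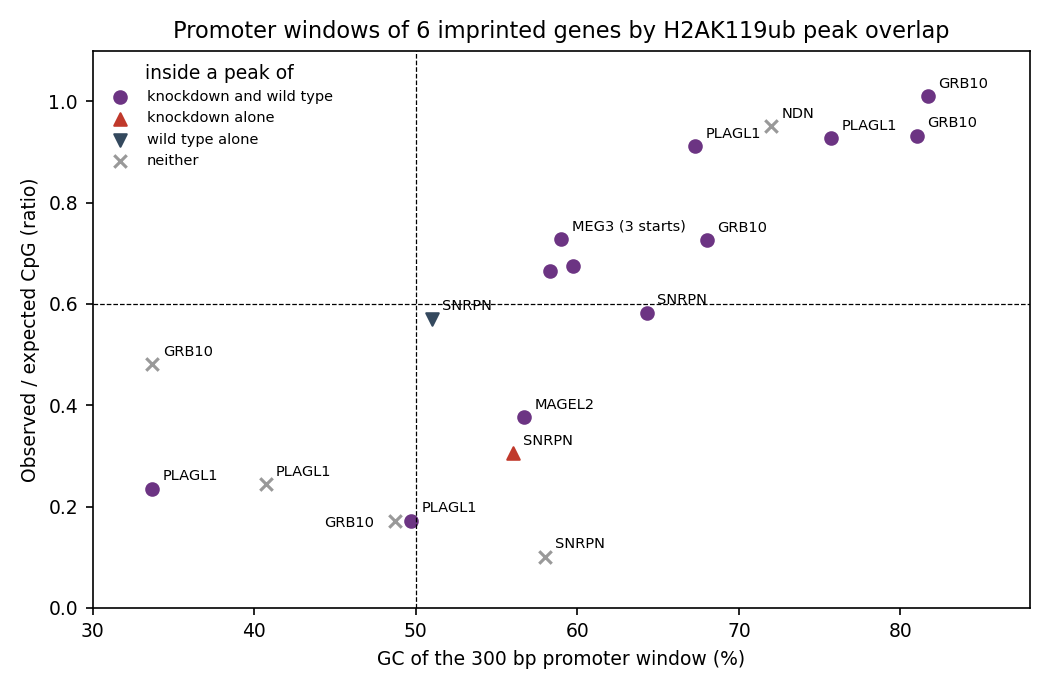
GC content against the ratio of observed to expected CpG for the 19 promoter windows of 6 genes, with symbols for overlap with a peak of both lists, of the knockdown alone, of the wild type alone or of neither, and dashed lines at 50% and 0.6. NDN (72.0%, 0.951) is the single window past both lines without a peak, and the windows that met a peak in 1 list alone are both of SNRPN.

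The hexamer TGCCGC, the core bound by the imprint-protecting zinc finger protein ZFP57, was searched on both strands, as was CCATNTT, the core bound by YY1. The hexamer was present in 8 of the 19 windows, among them MEG3, NDN, the inner PLAGL1 start and the SNRPN starts at the imprinting centre, and in 16.8% of all windows of the table. In CpG-rich windows it was present in 6 of 9 and in 29.0% of the table. The overlapping MEG3 windows hold the same match, so these counts of the hexamer are not of separate sites. CCATNTT was present in 5 of 19 windows, and in 15.5% of all windows. Matches of the 2 motifs never overlapped in these windows. The NDN window, outside peaks in both lists, held a TGCCGC match like the MEG3 windows inside them.

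A further 51 imprinted genes outside 11p15 were listed for comparison, of which 49 matched the annotation by symbol. The windows of 9 met those of the 10 genes, so the counts are also given for the other 40. Of the 49 genes, 38 had a peak in the window in knockdown cells and 40 in wild-type cells, where 79.8% and 79.4% of all protein-coding genes had one. Among the 40 with a peak in either list, 10 were lower and 4 higher in knockdown cells by at least 1.5 times, and the median ratio over 38 genes was 0.925. The shares over all protein-coding genes were 24.7% lower and 13.6% higher, with a median of 0.885, so these counts too were near those of genes at large. Without the 9 genes these numbers were 9 lower and 4 higher of 33, with a median of 0.94. Some of the remaining genes share peaks with each other, such as NNAT with BLCAP and PEG13 with TRAPPC9. The counts are therefore of genes and not of separate loci. A peak at the gene start was present in 30 of the 49 genes in knockdown cells and 32 in wild-type cells, against 67.2% and 66.8% of all protein-coding genes. The difference was CASD1 and RB1, the retinoblastoma gene, which had one in wild-type cells alone.

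In percentage points of the window, the largest decrease was at NNAT, which encodes a small membrane protein of neurons, with 10.6 kb in knockdown cells and 23.6 kb in wild-type cells (25% and 55.6% of the window). BLCAP, in whose intron NNAT lies, had the same peaks and 21.0% against 46.8%. Next came GNAS-AS1, the antisense transcript of the G protein gene GNAS, with 39.0% and 54.0%, a ratio of 0.722 that was not called. The largest increase in percentage points was at PEG13, a noncoding RNA inside TRAPPC9, with 19.3% in knockdown cells and 7.89% in wild-type cells, a ratio of 2.44. MEST, a gene of the hydrolase family on chromosome 7, had 20.6% and 14.9%, and its antisense neighbour MESTIT1 had 25.3% and 20%, with ratios of 1.38 and 1.26 that were not called. The other genes called higher were FAM50B, IGF2R and TRAPPC9, with ratios of 1.97, 1.85 and 1.52. Those called lower, besides NNAT and BLCAP, included CPA4, UBE3A and INPP5F, with ratios of 0.122, 0.182 and 0.535. TFPI2, COBL and AIRN were called lower too, with ratios of 0.583, 0.652 and 0.667. These genes are named here after their values were seen. CASD1 and RB1, named above, were also called lower, with 0 kb in knockdown cells. Of the neighbours within the windows of the 10 genes, HYMAI had 13.4% in knockdown cells and 11.5% in wild-type cells, RTL1 had 10% and 11.6%, SNURF had 2.51% and 2.82%, and SNHG14 had 0.849% and 1.27%.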

How the data were processed

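H2AK119ub was measured by chromatin immunoprecipitation and sequencing in H1 cells, and both H2AK119ub libraries had a peak list. Per the submitters' processing notes, the build was hg38 and the tools included SICER 1.1, MACS2 2.1.0, Bowtie2 2.2.5, Picard, Trimmomatic 0.35 and SAMtools 1.3.1. The peak caller and any use of the input are not given in sources used here. The authors deposited per peak a position and a score, whose unit is not given and which was used here only to rank or filter peaks within a list. Starts and ends lay on 200 bp bins in all peaks. Peaks off chromosomes 1 to 22 and X were dropped. The knockdown list covered 168.3 Mb and the wild-type list 195.1 Mb, which bears on every ratio.

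Covered length was counted in Python 3.11.15 with pandas 2.3.3 and tested on simulated data. Of the protein-coding genes of RefSeq GRCh38.p14, 153 with scaffold coordinates were left out. Strand came from the promoter table; both ends were used for genes outside it. Groups came from sample titles. The members and lists were chosen with earlier results of these data known. All 10 genes were named. Of the other imprinted genes, the rule named those with a start peak in 1 list alone, the 3 largest decreases and increases and window neighbours. The remaining called genes were added after their values were seen. Alternatives covered the flank, score, width, list size, fold and overlap.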

Additional observations from a re-analysis of the deposited data

How the results depend on the processing

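Neither library has a replicate and the depth is unknown, so these settings show how counts move, not how certain they are. No paired analysis was possible because each group had 1 library. The covered part of the windows together was lower in knockdown cells under the 8 settings tried, between 8.57% and 11.1% in knockdown cells and between 9.38% and 13.8% in wild-type cells. The count of lower genes was 1 with 50 kb on either side, with a wild-type list cut to equal covered length and with a fold of 2, and 5 when a change of 25% was counted, a setting chosen after seeing the data, like the flank of 30 kb. Under these 4 settings 21.6%, 16.4%, 12.6% and 38.9% of all protein-coding genes with a peak in either list were lower, and the counts at the imprinted genes moved in the same direction. The count of higher genes was 0 in the upper 50% by score and 2 with a change of 25%, where 15.3% and 19.6% of all protein-coding genes were higher. With the gene span alone the median ratio was 1.04 and 3 genes were lower. The share of all protein-coding genes with a peak in either list that were lower was then 29.9%. In the upper 50% by score, 2 peaks were in knockdown cells alone and 3 in wild-type cells alone. Peaks in knockdown cells alone numbered 3 with peaks of at least 2 kb and 10 when 50% of both peaks had to overlap. With the 300 bp promoter windows, which leave out 4 genes, 5 genes had a start peak in knockdown cells and 5 in wild-type cells. The NDN difference was 0 with peaks of at least 2 kb, which removes its 1.4 kb peak, and 0 with 50 kb on either side, where its window took in MAGEL2 and peaks summed to 5.2 kb in each list. Of the differences that were not called, that of DLK1 was positive with 30 and 50 kb on either side (3.64 and 3.69 percentage points), and those of MEG3 and SGCE with the gene span alone (2.86 and 0.562); the cause was not tested.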

Other observations

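The MEG3 window holds hairpins of 6 microRNA genes of the DLK1 and MEG3 locus, which were looked at after the peaks were seen. None lay in a wild-type peak. In the knockdown, 11 of the 98 bp of the MIR770 hairpin lay in a narrow peak of 1.4 kb inside MEG3 (100851001 to 100852400) that was in the knockdown list alone, and the hairpins of MIR2392, MIR493, MIR337, MIR665 and MIR431 lay outside peaks.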
